A study of Rattus norvegicus with 16 samples.

Results

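The 48 genes described here are chemokines and chemokine receptors of the rat, measured in normal distal colon on Agilent microarrays. They were the genes whose symbol carries a chemokine or chemokine receptor name and for which a probe was matched, apart from the CXC ligands and receptors of the neutrophil group (Cxcl1, Cxcl2, Cxcl3, Cxcl6, Cxcr1 and Cxcr2), which were left out. They numbered 48 of the 15159 genes named on the array, with 1 probe per gene, the brightest. There were 30 ligands, 16 receptors and 2 atypical receptors. The same name pattern holds 51 genes in the RefSeq table, and no probe was matched to the other 3 (Ackr1, Ackr4 and Ccr8).

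The arrays came from 16 rats of the (ACIxF344)F1 hybrid at 97 days of age, 4 in each of 4 groups. The rats were wildtype for Apc or carried 1 copy of the Pirc allele of Apc in every cell (Pirc/+), and they were untreated or had received dextran sodium sulfate (DSS), a sulfated polysaccharide that injures the colonic epithelium. DSS was given at 4% in the drinking water from day 40 to day 47 and again from day 54 to day 61, so that tissue was taken 36 days after the last exposure. The untreated Pirc rats were numbers 11, 15, 19 and 23, and the DSS-treated Pirc rats were 12, 16, 20 and 24. The untreated wildtype rats were 13, 17, 21 and 25, and the DSS-treated wildtype rats were 14, 18, 22 and 26. Values below are listed in that order. The strain entry of the wildtype rats also names Pirc, and the genotype was taken from the genotype entry. All rats share the F1 background, and the Pirc allele reached the heterozygotes from the F344 parent.

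Chemokines are small secreted proteins that bind to the vessel wall and the matrix and guide leukocytes, which carry the matching receptors, into and through a tissue. The CC and CXC families are named for the spacing of their first cysteines, and the receptors are G protein-coupled receptors, most of which bind several ligands of 1 family. In the gut some are made at rest by the epithelium and place lymphocytes in the mucosa, others are induced by inflammation and call in monocytes, eosinophils or effector T cells, and others again build lymphoid tissue. Atypical receptors bind chemokines without the usual signal and clear them.

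A level is the log2 of the processed signal relative to the 75th percentile of its array, averaged over the spots of the probe, and a level of one probe was not set against that of another. A difference of levels was called when the adjusted p of limma over all 30367 probes was 0.05 or less and the change was at least a factor of 2. The scanner software marked 71.1% to 80.3% of the spots of an array as well above background. Of the 48 genes, 22 passed this mark on all 16 arrays, 20 on some and 6 on none. Where a group had no array above background and the other was above it on every array, the change is given as at least so many fold, with the lowest signal above background of each array as its floor. A common floor, the highest of these over the arrays, is stricter and its value stands beside the bound. Where part of a group was below background, the difference is of values as measured, and where 1 array or fewer of the lower group was above it no other fold is given. Each of the 2 slides held 2 rats of every group, whereas each group lay in 1 array column, so that column and group cannot be told apart. All 11 measured markers of colonic epithelium were well above background on every array. In such a bulk sample, fewer cells of a type and less RNA per cell cannot be told apart.

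DSS enhanced 15 of the 48 genes in the Pirc rats and diminished 0, where 5.51% of all probes were called higher and 1.95% lower. In the wildtype rats it enhanced 11 and diminished 0, where 2.37% of all probes were called higher and 0.402% lower. The median difference of the 48 genes was 0.45 on the log2 scale in Pirc rats and 0.95 in wildtype rats, beside 0.04 and 0.09 over all probes. A set of 7 genes was called in both genotypes, which is 46.7% of the Pirc calls and 63.6% of the wildtype calls. Among them were the ligands Ccl2, Ccl7, Ccl11 and Ccl3 and the receptors Ccr6 and Cxcr4. In the Pirc rats the calls were 9 ligands and 6 receptors, and in the wildtype rats 6 ligands and 5 receptors. Of these 5 receptors, 2 (Cxcr3 and Cxcr6) were below background on every wildtype array. Treated and untreated Pirc rats did not overlap for 17 genes that were higher and 1 that was lower, where 8.88% and 8.06% of all probes did so. In wildtype rats the groups did not overlap for 14 genes that were higher and 0 that were lower, where 8% and 4.44% of all probes did so. By adjusted p alone, 17 genes were higher and 1 lower in Pirc rats, where 8.14% and 6.51% of all probes were so, and 11 were higher in wildtype rats, where 2.94% of all probes were so. All 15 Pirc calls and all 11 wildtype calls had the same sign on both slides. The wildtype count depended on single rats and was 4 without DSS-treated wildtype rat 14 and 7 without wildtype rat 13, 17 or 18. With normexp background correction of the median signal, which pulls dim probes together, 8 genes were called in Pirc rats and 2 in wildtype rats.

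**Figure D1:**
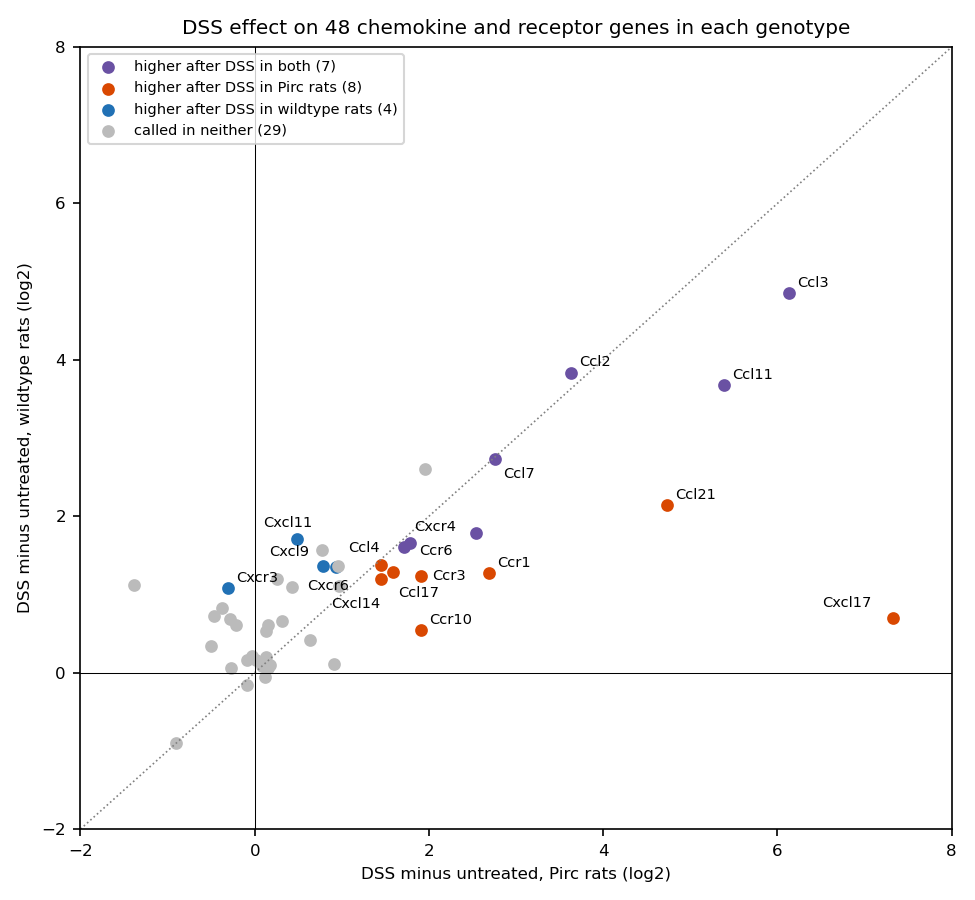
Difference of the mean log2 level, DSS minus untreated, for the 48 genes, in Pirc rats on the horizontal axis and in wildtype rats on the vertical axis (4 rats per group); the dotted line marks equal differences and colours give the calls, with most called genes named. The 7 genes called in both genotypes run from Ccr6 to Ccl3. Of these, Ccl11 (5.38 in Pirc and 3.68 in wildtype rats) and Ccl3 (6.13 and 4.85) lie below the line. Cxcl17 lies far to the right, at 7.32 in Pirc rats and 0.70 in wildtype rats.

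Among the ligands, Ccl2, Ccl7, Ccl11, Ccl12 and Ccl1 follow each other in this order on chromosome 10 in the RefSeq annotation. DSS enhanced the first 3 in both genotypes and neither of the last 2 in either. Ccl2, the monocyte attractant also known as MCP-1, had levels of -6.46, -6.73, -6.41 and -3.72 in the untreated Pirc rats and of -2.54, -1.86, -2.34 and -2.09 in the DSS-treated Pirc rats. The groups did not overlap, although untreated rat 23 lay well above its group, and the difference was 3.63 (SE 0.64, adjusted p = 0.0017 by limma), a 12.4-fold rise (2.21 with normexp background correction). In the wildtype rats Ccl2 rose from -6.05, -6.98, -7.17 and -5.81 to -1.68, -1.82, -4.13 and -3.02. Again the groups did not overlap, 2 of the 4 untreated arrays were above background, and the rise was 14.3-fold (difference 3.84, SE 0.64, adjusted p = 0.00533), or 1.92 with normexp. Within slides 1 and 2 the wildtype difference was 4.76 and 2.91.

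Ccl7, a monocyte attractant of the same receptor Ccr2, was at -7.11, -7.74, -7.50 and -7.44 in untreated Pirc rats, where 1 of the 4 arrays was above background, and at -5.25, -4.55, -4.94 and -4.04 after DSS. The untreated wildtype rats were below background on all 4 arrays, at -7.75, -8.09, -8.18 and -7.65, and the treated ones were at -4.17, -4.68, -6.03 and -5.88. No treated rat of either genotype reached down to the untreated level. The difference was 2.75 (SE 0.37, adjusted p = 0.000277) in Pirc rats and 2.73 (SE 0.37, adjusted p = 0.00222) in wildtype rats, where the rise was at least 3.26-fold over the floors of the single arrays. With a common floor the differences were 1.52 and 1.03 and with normexp 1.02 and 0.71, and the wildtype call was lost under both (adjusted p = 0.171 and 0.146).

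Ccl11 (eotaxin), which attracts eosinophils through Ccr3, went from -7.76, -7.55, -7.10 and -7.98 to -2.35, -1.69, -2.08 and -2.74 with DSS in the Pirc rats. It was above background in 1 of the 4 untreated Pirc rats and in all treated ones, and the groups did not overlap (difference 5.38, SE 0.80, adjusted p = 0.000537). With a common floor the difference was 4.00 and with normexp 2.53, both called. The wildtype rats had -7.75, -7.81, -8.16 and -3.47 without DSS and -2.84, -2.99, -4.35 and -2.30 with it. Here untreated rat 25 lay within the range of the treated rats, so that the groups overlapped, and the difference was 3.68 (SE 0.80, adjusted p = 0.0195). That wildtype call was lost without any one of wildtype rats 13, 14, 17, 18 and 21 (difference 3.22 to 3.63, adjusted p = 0.057 to 0.0719) and with a common floor (2.41, adjusted p = 0.0512) or only the compared groups in the fit (adjusted p = 0.11).

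Rat 25 also stood high in its group for other genes. Its mean level over 5 smooth muscle markers was -1.57, beside -4.43, -4.34 and -4.10 in the other untreated wildtype rats, and rat 26 of the DSS-treated wildtype rats had -1.01, beside -3.50, -3.61 and -4.21. Within slide 1, which does not hold these rats, the wildtype difference of Ccl11 was 4.87, and within slide 2 it was 2.49.

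The neighbours Ccl12, another Ccr2 ligand, and Ccl1, the ligand of Ccr8, were not called. Ccl12 was at -6.57, -7.04, -8.48 and -5.38 in untreated and -6.60, -5.14, -6.29 and -5.60 in DSS-treated Pirc rats, and these overlapped (difference 0.96, SE 0.51, adjusted p = 0.252). In the wildtype rats the Ccl12 groups did not overlap, but the difference of 1.37 (SE 0.51) had an adjusted p of 0.17. Only 1 of the 4 treated and 0 of the 4 untreated wildtype arrays were above background for Ccl12. Ccl1 was below background on all 16 arrays.

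Promoter sequences are printed for Ccl7 and Ccl12, close neighbours of which DSS enhanced only the first by the test, and a test of the difference between the genes was not made. RefSeq promoters of build GRCr8 were held for 37 of the 48 genes, with Ccl2, Ccl11, Ccl3 and Ccl4 not among them, and the 250 bases before the start were searched on both strands for 5 motifs. The motifs were the NF-kappaB consensus, found in 6.33% of the 33469 promoters, TGANTCA for AP-1 (6.34%), TATAAA for the TATA box (12.9%), TTCNNNGAA for the gamma-activated site (7.67%) and the interferon-stimulated response element core, TTTC and TTTC spaced by NN (3.41%). Matches were in 6, 7, 12, 4 and 2 of the 37 promoters, in the same order. Capitals mark a match on either strand. Ccl7 (chr10:67513845-67514094, plus strand) had an AP-1 match from -73 to -67, an NF-kappaB match from -59 to -50 and a TATA box from -34 to -29, counted from the start. Ccl12 (chr10:67567626-67567875, plus strand) had a TATA box from -41 to -36.
Ccl7: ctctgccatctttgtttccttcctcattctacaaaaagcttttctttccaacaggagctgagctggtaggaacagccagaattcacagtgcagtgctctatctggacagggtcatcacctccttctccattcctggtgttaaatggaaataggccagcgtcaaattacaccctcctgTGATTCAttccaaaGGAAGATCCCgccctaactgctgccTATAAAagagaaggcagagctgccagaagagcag
Ccl12: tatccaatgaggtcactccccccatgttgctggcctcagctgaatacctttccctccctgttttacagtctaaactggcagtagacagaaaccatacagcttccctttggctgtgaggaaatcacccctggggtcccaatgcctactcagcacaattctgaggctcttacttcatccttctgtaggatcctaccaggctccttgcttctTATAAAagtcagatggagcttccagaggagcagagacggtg

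Ccl3, Ccl4 and Ccl5 are ligands of Ccr1 made by macrophages and T cells, and lie with Ccl9 and Ccl6 in another row of genes on chromosome 10. Ccl3 (MIP-1 alpha) was below background in every untreated rat, at -9.43, -7.06, -9.28 and -8.43 in Pirc and -9.29, -8.80, -8.85 and -8.26 in wildtype rats. After DSS it stood at -3.27, -2.32, -0.89 and -3.21 in the Pirc rats, a rise of at least 25.6-fold over the floors of the single arrays (difference 6.13, SE 0.97, adjusted p = 0.000878). The Pirc difference was 3.80 with a common floor and 2.60 with normexp, both called. The treated wildtype rats were spread from rat to rat, at -2.13, -1.48, -6.74 and -5.46. Of these, rat 22 was below background, and the difference was 4.85 (SE 0.97, adjusted p = 0.0131). The wildtype difference was 7.25 on slide 1 and 2.45 on slide 2, and it was no longer called without rat 14 (4.24, adjusted p = 0.057), with a common floor (2.40, adjusted p = 0.205), with normexp (1.68, adjusted p = 0.137) or with only the compared groups in the fit (adjusted p = 0.0701).

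Ccl4 (MIP-1 beta), next to Ccl3, was below background in all untreated rats and reached -6.45, -5.72, -4.89 and -7.24 in the DSS-treated Pirc rats, of which the first 3 were above background. The highest untreated Pirc rat, at -7.11, lay above the lowest treated one, and the difference was 1.45 (SE 0.46, adjusted p = 0.0457). This call lay at the threshold and was lost without any one of 11 rats (rats 11, 12, 13, 15, 16, 17, 18, 19, 20, 21 and 25, adjusted p = 0.0565 to 0.151), as well as with a common floor (0.46, adjusted p = 0.212), with normexp (0.50, adjusted p = 0.171) and under 5 other alternatives (adjusted p = 0.0529 to 0.101). In wildtype rats 1 of the 4 treated arrays was above background for Ccl4 (difference 1.38, SE 0.46, adjusted p = 0.119).

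The other genes of that row were not called after DSS. Ccl5 (RANTES) was above background on every array and had differences of -0.37 (SE 0.24, adjusted p = 0.368) in Pirc and 0.82 (SE 0.24, adjusted p = 0.0777) in wildtype rats. Ccl6 and Ccl9, myeloid chemokines of rodents, had differences of 0.13 and 0.32 in Pirc rats and 0.54 and 0.66 in wildtype rats, with adjusted p of 0.195 or more. Among 5 neighbouring genes, then, Ccl3 alone was called in both genotypes.

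**Figure D2:**
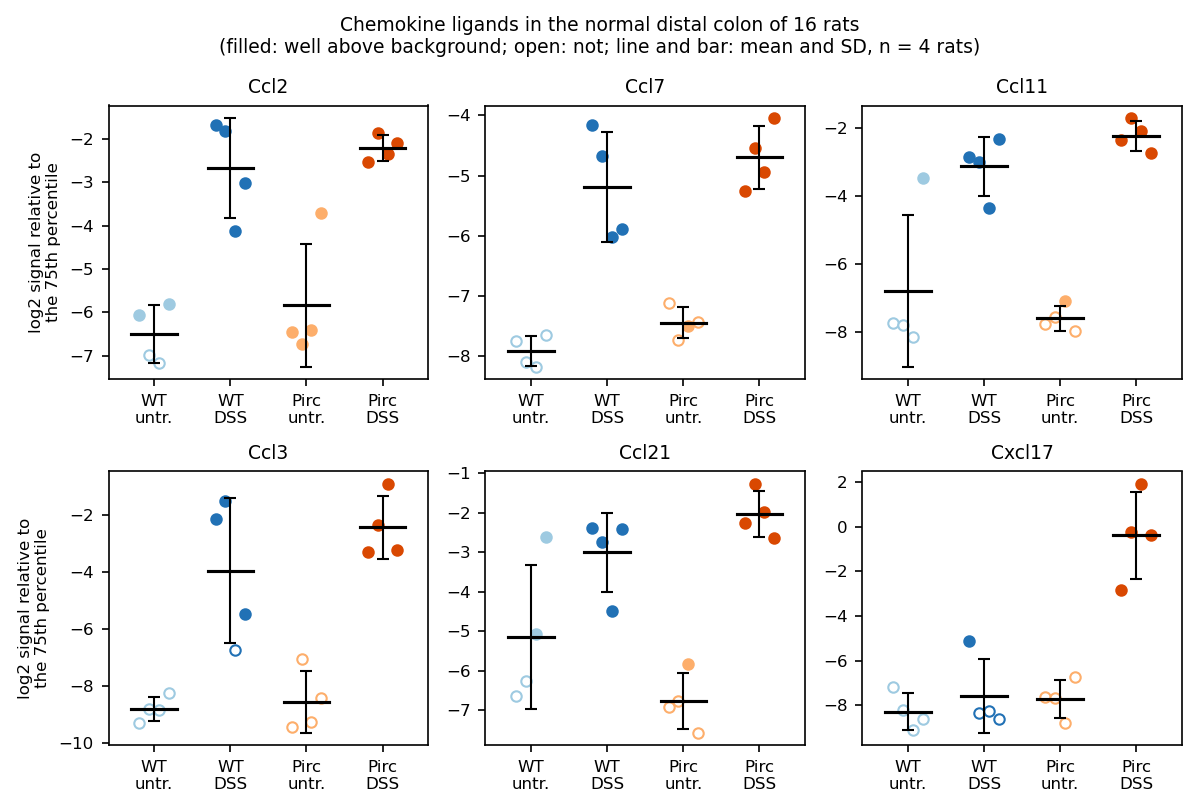
Levels of 6 ligands in each rat, in log2 of the signal over the array's 75th percentile (WT, wildtype; untr., untreated; line and bar, mean and SD of 4 rats; open circles, not well above background; each gene has its own axis). Untreated wildtype rat 25 stands at -3.47 for Ccl11 and -2.61 for Ccl21, among the treated rats, and Cxcl17 is above background in the 4 DSS-treated Pirc rats and in wildtype rat 14.

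Ligands that organise lymphoid tissue and guide dendritic cells behaved unequally. Ccl21, which brings naive T cells and dendritic cells to lymphoid tissue through Ccr7, was at -6.93, -6.76, -5.83 and -7.57 in untreated Pirc rats and at -2.25, -1.27, -1.98 and -2.65 after DSS. The groups were far apart, with 1 of 4 untreated arrays above background, and the difference was 4.74 (SE 0.73, adjusted p = 0.000753). It was 4.08 with a common floor and 2.62 with normexp, both called. In the wildtype rats Ccl21 was at -6.63, -6.26, -5.07 and -2.61 without DSS and -2.40, -2.73, -4.50 and -2.40 with it. The overlap came from untreated rat 25, and the difference of 2.14 (SE 0.73, adjusted p = 0.134) was not called. Without rat 25 it was 2.98 (adjusted p = 0.0131) and called. Within slides it was 3.89 and 0.39.

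Ccl19, the other Ccr7 ligand, was above background in 1 treated rat of each genotype, Pirc rat 20 at -5.81 and wildtype rat 26 at -3.67. Cxcl13, the B cell attractant of lymphoid follicles and ligand of Cxcr5, was not called (differences -0.47 and 0.73, adjusted p = 0.306 and 0.177). Ccl17, a ligand of Ccr4 on helper and regulatory T cells, rose in the Pirc rats from -6.13, -7.14, -7.50 and -5.73 to -4.84, -5.02, -5.65 and -4.61. These groups lay close to each other without overlap (difference 1.59, SE 0.41, adjusted p = 0.0183, 3.02-fold), with 2 of the 4 untreated arrays above background. Without rat 15 or 19 the adjusted p was 0.0621 in each case, and with normexp the difference was 0.76 (adjusted p = 0.0271), under a factor of 2. In wildtype rats the difference of Ccl17 was 1.29 (SE 0.41, adjusted p = 0.106). Ccl22, the second Ccr4 ligand and a near neighbour of Ccl17 on chromosome 19, had differences of 0.15 and 0.05 with an SE of 0.20.

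Cxcl12, made by stromal cells and the ligand of Cxcr4 and Ackr3, was measured by a pair of probes that gave different calls. On the brighter one it was at -5.60, -5.80, -4.36 and -4.62 in untreated Pirc rats and -3.24, -2.17, -3.53 and -3.61 after DSS. The wildtype rats were at -5.87, -5.48, -6.13 and -2.81 untreated and -2.36, -2.37, -4.02 and -1.11 treated. The Pirc groups did not overlap and the wildtype groups overlapped through rat 25. The differences were 1.96 (SE 0.70, adjusted p = 0.0788) and 2.60 (SE 0.70, adjusted p = 0.0543), neither called. The dimmer probe gave 2.12 (SE 0.44, adjusted p = 0.00457) and 2.37 (SE 0.44, adjusted p = 0.00887), both called. Of the 4 untreated arrays of each genotype, this dimmer probe was above background on 3 in Pirc and 1 in wildtype rats. The brighter one was above it on all 16 arrays. Without rat 25 the brighter probe was called too, at 1.96 (adjusted p = 0.0252) in Pirc and 3.36 (adjusted p = 0.00847) in wildtype rats, and without rat 22 in wildtype rats (3.12, adjusted p = 0.0221).

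Cxcl14, an epithelial chemokine, was bright on all arrays and rose in the Pirc rats from 1.03, 1.07, 1.71 and 1.30 to 2.55, 2.77, 2.71 and 2.90. The treated Pirc rats were tightly grouped and did not overlap with the untreated ones (difference 1.45, SE 0.42, adjusted p = 0.0311, 2.74-fold). The wildtype rats were spread more widely, from 0.88, 0.53, 0.09 and 0.08 untreated to 2.91, 2.25, 0.57 and 0.65 after DSS (difference 1.20, SE 0.42, adjusted p = 0.141). The Pirc call was lost without any one of Pirc rats 11, 12, 15, 16, 20 and 24 (adjusted p = 0.0519 to 0.0813), and the wildtype difference was called without rat 22 or 26 (1.54 or 1.51).

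Cxcl9, Cxcl10 and Cxcl11 are the interferon-induced ligands of Cxcr3, the receptor of type 1 helper T cells, and lie side by side on chromosome 14. DSS enhanced Cxcl11 and Cxcl9 in the wildtype rats and none of the 3 in the Pirc rats. Cxcl11 went from -4.56, -4.74, -4.77 and -5.08 to -2.09, -3.16, -3.35 and -3.72 in wildtype rats. All treated rats were above all untreated ones (difference 1.71, SE 0.37, adjusted p = 0.0186, 3.27-fold). In Pirc rats it was at -3.35, -4.05, -4.34 and -3.96 untreated and -3.52, -3.0, -4.42 and -2.81 treated, overlapping, with a difference of 0.48 (SE 0.37, adjusted p = 0.456). The wildtype call was lost without any one of wildtype rats 14, 17, 18 and 25 (1.38 to 1.74, adjusted p = 0.052 to 0.0639) and with normexp (1.07, adjusted p = 0.0547).

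Cxcl9 was at -6.37, -6.94, -6.14 and -5.97 in untreated and -4.84, -5.98, -4.99 and -4.17 in DSS-treated wildtype rats. Treated rat 18 fell within the untreated range, and the call of the difference of 1.36 (SE 0.35, adjusted p = 0.0459) was lost without any one of 13 of the 16 rats, all but 16, 18 and 20 (adjusted p = 0.056 to 0.147). That call was also lost with normexp (0.55, adjusted p = 0.252) and with a common floor (1.14, adjusted p = 0.101). Quantile normalization (adjusted p = 0.118), array row as a block (0.0515), only the compared groups (0.107) and no moderation (0.0752) lost it too. In Pirc rats the difference of Cxcl9 was 0.79 (SE 0.35, adjusted p = 0.164). Cxcl10 differed in sign between the genotypes, and neither difference was called. It was at 1.04, -1.04, -1.30 and -0.71 in untreated and -1.27, -2.35, -1.58 and -2.35 in treated Pirc rats (difference -1.38, SE 0.50, adjusted p = 0.0839), and at -2.47, -0.95, -1.41 and -2.56 and then 0.13, -1.14, -0.81 and -1.07 in wildtype rats (1.13, SE 0.50, adjusted p = 0.271). The difference between these effects was -2.51 (SE 0.71, adjusted p = 0.25).

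The promoters of these neighbours are shown because the genes lie together and were called unequally. Cxcl10 (chr14:15988816-15989065, plus strand) held NF-kappaB matches from -187 to -178 and from -128 to -118, the latter on both strands and overlapping, an interferon-stimulated element from -243 to -234, an AP-1 match from -96 to -90 and a TATA match from -162 to -157. Cxcl11 (chr14:15973478-15973727, plus strand) held a gamma-activated site from -250 to -242, an AP-1 match from -85 to -79, an NF-kappaB match from -74 to -65 and a TATA box from -41 to -36. For Cxcl9 (chr14:16006916-16007165, plus strand) the letters of the 5 motifs were not in this window.
Cxcl9: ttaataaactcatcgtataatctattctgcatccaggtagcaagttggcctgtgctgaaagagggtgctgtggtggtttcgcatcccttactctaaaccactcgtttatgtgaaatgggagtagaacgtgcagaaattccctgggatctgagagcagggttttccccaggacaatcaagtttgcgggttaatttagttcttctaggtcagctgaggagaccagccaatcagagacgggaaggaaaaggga
Cxcl10: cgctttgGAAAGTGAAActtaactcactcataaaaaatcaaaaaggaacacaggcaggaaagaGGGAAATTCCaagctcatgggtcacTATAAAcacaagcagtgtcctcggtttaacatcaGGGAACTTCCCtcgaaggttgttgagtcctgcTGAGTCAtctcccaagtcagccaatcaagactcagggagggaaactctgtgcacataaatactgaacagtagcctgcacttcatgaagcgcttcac
Cxcl11: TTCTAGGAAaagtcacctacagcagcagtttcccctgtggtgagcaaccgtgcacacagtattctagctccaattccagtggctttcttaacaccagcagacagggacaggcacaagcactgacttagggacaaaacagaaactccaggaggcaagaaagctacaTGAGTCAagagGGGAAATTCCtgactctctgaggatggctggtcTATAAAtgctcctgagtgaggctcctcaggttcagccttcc

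**Figure D3:**
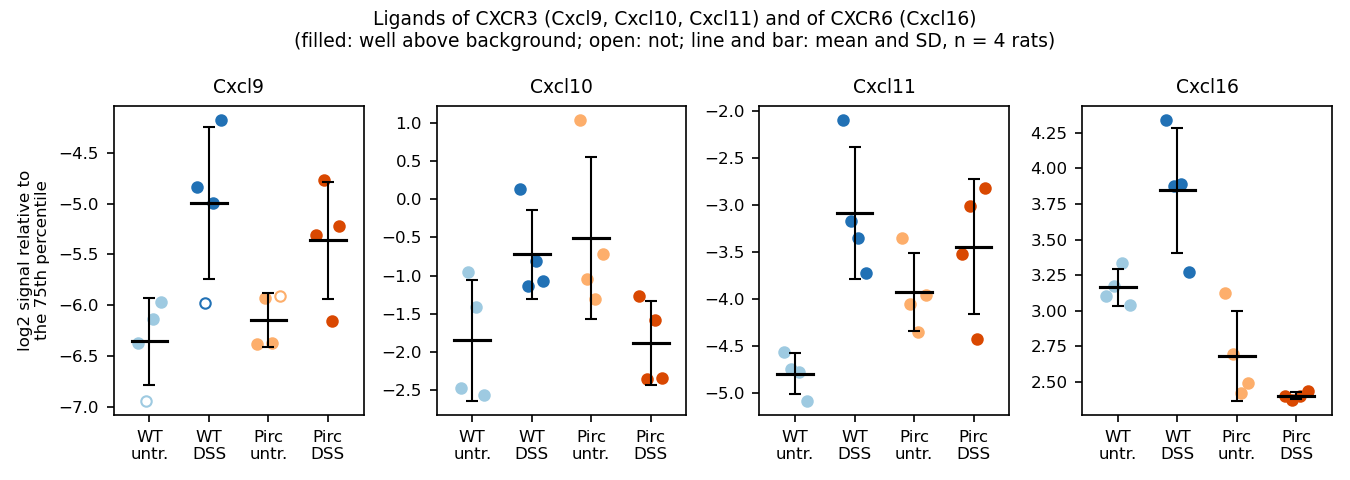
Levels of Cxcl9, Cxcl10, Cxcl11 and Cxcl16 in each rat, in log2 of the signal over the array's 75th percentile (WT, wildtype; untr., untreated; line and bar, mean and SD of 4 rats; open circles, not well above background; each gene has its own axis). For Cxcl16 the 4 DSS-treated Pirc rats lie between 2.37 and 2.44, below every DSS-treated wildtype rat, the lowest of which is at 3.27.

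Cxcl16, a membrane-bound ligand of Cxcr6 that is also a scavenger receptor, was the only one of the 48 genes called lower in Pirc than in wildtype rats, and this was after DSS. Its levels were 2.40, 2.37, 2.40 and 2.44 in the DSS-treated Pirc rats and 4.34, 3.87, 3.89 and 3.27 in the DSS-treated wildtype rats. The groups did not overlap and Cxcl16 was diminished 2.71-fold (difference -1.44, SE 0.20, adjusted p = 0.000711). Untreated, it was at 3.12, 2.69, 2.42 and 2.49 in Pirc and 3.11, 3.17, 3.34 and 3.04 in wildtype rats, an overlap through rat 11 (difference -0.48, SE 0.20, adjusted p = 0.418). The DSS effects themselves were -0.28 (SE 0.20, adjusted p = 0.42) in Pirc and 0.68 (SE 0.20, adjusted p = 0.0727) in wildtype rats, neither called, and their difference was -0.96 (SE 0.28, adjusted p = 0.262).

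Cxcl17, a chemokine of mucosal surfaces, had the largest difference of the 48 genes in the Pirc rats. All 8 untreated rats were below background, at -7.63, -7.67, -8.81 and -6.71 in Pirc and -7.18, -8.20, -9.11 and -8.64 in wildtype rats. The DSS-treated Pirc rats reached -2.85, -0.24, 1.93 and -0.36, and the DSS-treated wildtype rats had -5.13, -8.34, -8.24 and -8.61, of which rat 14 alone was above background. DSS enhanced Cxcl17 at least 108-fold in Pirc rats over the floors of the single arrays (difference 7.32, SE 0.91, adjusted p = 0.000192). The wildtype difference was 0.70 (SE 0.91, adjusted p = 0.796). After DSS the Pirc rats exceeded the wildtype rats (difference 7.20, SE 0.91, adjusted p = 0.000432), with no overlap. With a common floor these 2 called differences were 5.84 and 5.56, and with normexp 4.26 and 3.81, all called. The difference between the DSS effects, 6.62 (SE 1.29), did not pass over all rats (adjusted p = 0.105), and passed without rat 12 (7.45, adjusted p = 0.0125) or rat 14 (7.44, adjusted p = 0.0325).

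Markers of stratified epithelium and urothelium also rose after DSS in Pirc rats, and some rose in wildtype rats, where Cxcl17 was not called. Of 9 such genes measured, DSS enhanced 7 in Pirc rats and 3 in wildtype rats, where 5.51% and 2.37% of all probes were called higher. After DSS 4 of the 9 were higher in Pirc than in wildtype rats, where 3.1% of all probes were. The mean level of the 9 per rat was -0.89, 0.06, 0.83 and 0.56 in the DSS-treated Pirc rats, -2.51, -1.98, -0.50 and -4.64 in the DSS-treated wildtype rats and between -5.12 and -4.38 in the untreated rats. By these markers wildtype rat 22 was at -0.50 and Pirc rat 12 at -0.89. Cxcl17 was below background in rat 22 and at -2.85 in rat 12. Of the 7 called in Pirc rats, the urothelial genes Upk1a and Upk3a were not called in wildtype rats. Upk1a differed by 3.44 in Pirc (adjusted p = 0.000202) and 0.30 in wildtype rats (adjusted p = 0.815). For Upk3a the differences were 1.58 (adjusted p = 0.000875) and 0.28 (adjusted p = 0.668). Both were chosen after their values were seen. The 3 markers called in wildtype rats were other members of the list, and Cxcl17 was not called there. Of the defining markers, Upk2 was below background on all 16 arrays, whereas Krt5, Krt14, Sprr3 and Tp63 were above it on all. The part of these markers in the Cxcl17 result was not tested.

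**Figure D4:**
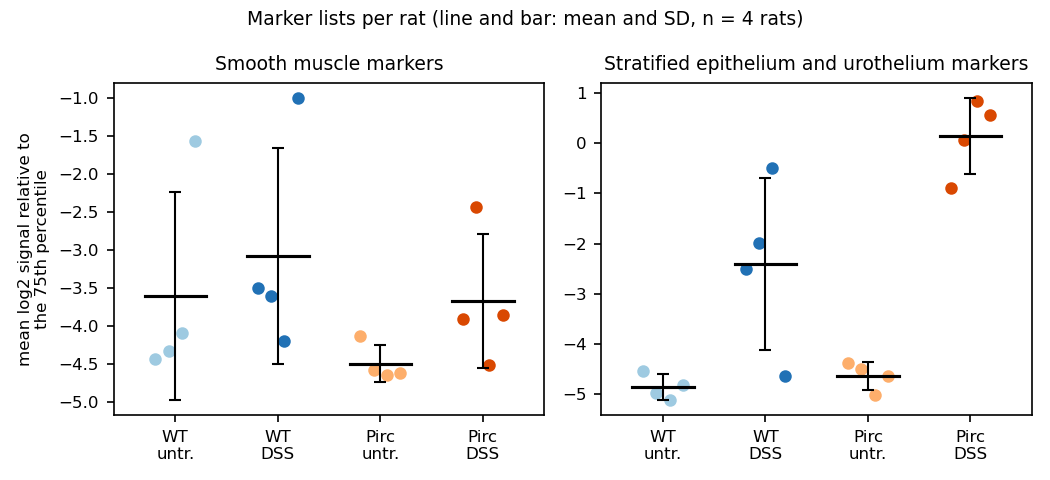
Mean log2 level per rat of 5 smooth muscle markers and of 9 markers of stratified epithelium and urothelium, relative to the 75th percentile of the array (WT, wildtype; untr., untreated; line and bar, mean and SD of 4 rats). Rats 25 and 26 stand apart in smooth muscle markers at -1.57 and -1.01, and the DSS-treated Pirc rats are highest in the other list, between -0.89 and 0.83.

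The RefSeq promoter of Cxcl17 (chr1:90124536-90124785, minus strand, GRCr8) is printed because this gene separated the genotypes most after DSS. The letters of the 5 motifs were not in this window.
Cxcl17: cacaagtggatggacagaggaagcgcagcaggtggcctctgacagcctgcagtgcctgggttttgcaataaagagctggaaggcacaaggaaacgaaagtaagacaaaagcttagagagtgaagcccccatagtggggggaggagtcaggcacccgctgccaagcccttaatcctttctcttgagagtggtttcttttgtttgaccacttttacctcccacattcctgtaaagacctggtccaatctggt

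The remaining ligands are those that colonic epithelium makes at rest and those of other tissues. Ccl28, which draws IgA plasma cells through Ccr10, went from 1.65, 1.85, 2.16 and 1.66 to 1.11, 0.92, 0.90 and 0.80 with DSS in Pirc rats. The groups did not overlap, and the adjusted p passed (difference -0.90, SE 0.27, adjusted p = 0.0373) although the change was under a factor of 2, where 6.51% of all probes were lower by adjusted p alone. In wildtype rats the difference was also -0.90 (SE 0.27, adjusted p = 0.0847). Ccl20, the epithelial ligand of Ccr6, had differences of 0.15 (SE 0.37) and 0.61 (SE 0.37) and was not called in either genotype. Cx3cl1 (fractalkine), Ccl24 (an eosinophil attractant of Ccr3), Ccl27 (another Ccr10 ligand), Ccl22 and Xcl1 were above background on all arrays, and none was called after DSS. Their differences lay between -0.51 and 0.34 in the 2 genotypes. Ccl25, the small-intestinal ligand of Ccr9, and Ccl26 were below background on all 16 arrays.

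Of the receptors, Ccr1, which binds Ccl3 and Ccl5 on monocytes and macrophages, and Ccr3, the eosinophil receptor of Ccl11 and Ccl24, lie near each other on chromosome 8 and were called in Pirc rats alone. Ccr1 was below background in all untreated rats and at -6.26, -5.66, -6.07 and -7.77 in DSS-treated Pirc rats, the last of them, rat 24, still below background. The difference was 2.69 (SE 0.53, adjusted p = 0.00349), and in wildtype rats the difference was 1.27 (SE 0.53, adjusted p = 0.229) with 1 of 4 treated arrays above background. Ccr3 was at -6.79, -6.13, -6.91 and -7.49 in DSS-treated Pirc rats, of which rats 12 and 20 were above background, and every untreated rat was below it. Its difference was 1.91 (SE 0.45, adjusted p = 0.0103), beside 1.24 (SE 0.45, adjusted p = 0.156) in wildtype rats. Both Pirc calls were lost with normexp (0.63 and 0.45, adjusted p = 0.0777 and 0.214) and with a common floor (0.18 and 0.023, adjusted p = 0.266 and 0.509), so no fold is given. Ccr2, the receptor of Ccl2, Ccl7 and Ccl12, was above background on few arrays and was not called (differences 0.64 and 0.42, SE 0.40, adjusted p = 0.349 and 0.694). The Ccr1-like gene Ccr1l1, which lies between Ccr3 and Ccr2, had differences of -0.09 and 0.16.

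Ccr6, the receptor of Ccl20 on Th17 cells, B cells and immature dendritic cells, had nearly the same difference in both genotypes. It rose from -5.69, -5.76, -4.91 and -5.60 to -4.03, -3.57, -3.94 and -3.56 in Pirc rats (difference 1.71, SE 0.22, adjusted p = 0.000225, 3.28-fold). In wildtype rats it rose from -5.61, -5.95, -5.89 and -5.52 to -4.03, -4.21, -4.61 and -3.69 (difference 1.61, SE 0.22, adjusted p = 0.00222, 3.05-fold). Every array was above background and neither pair of groups overlapped. With normexp the differences were 0.96 (adjusted p = 0.000979) and 0.72 (adjusted p = 0.038), under a factor of 2, and so not called. The difference between the effects was 0.10 (SE 0.31, adjusted p = 0.955).

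Cxcr4, carried by most leukocytes and the receptor of Cxcl12, was at -6.04, -6.23, -6.53 and -6.66 in untreated and -4.98, -4.69, -4.18 and -4.47 in DSS-treated Pirc rats. The wildtype rats went from -6.54, -6.45, -7.14 and -6.32 to -4.18, -4.44, -5.88 and -5.33. Treated and untreated rats did not overlap in either genotype, and the rises were 3.44-fold (difference 1.78, SE 0.32, adjusted p = 0.00208) and 3.15-fold (1.65, SE 0.32, adjusted p = 0.0119). Of the 4 untreated arrays of each genotype, 3 in Pirc and 2 in wildtype rats were above background. With a common floor the differences were 1.59 and 1.26, both called. With the compared groups alone in the fit, the adjusted p in wildtype rats was 0.0714. With normexp neither was called (0.84 in Pirc rats, adjusted p = 0.00806, and 0.63 in wildtype rats, adjusted p = 0.124).

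**Figure D5:**
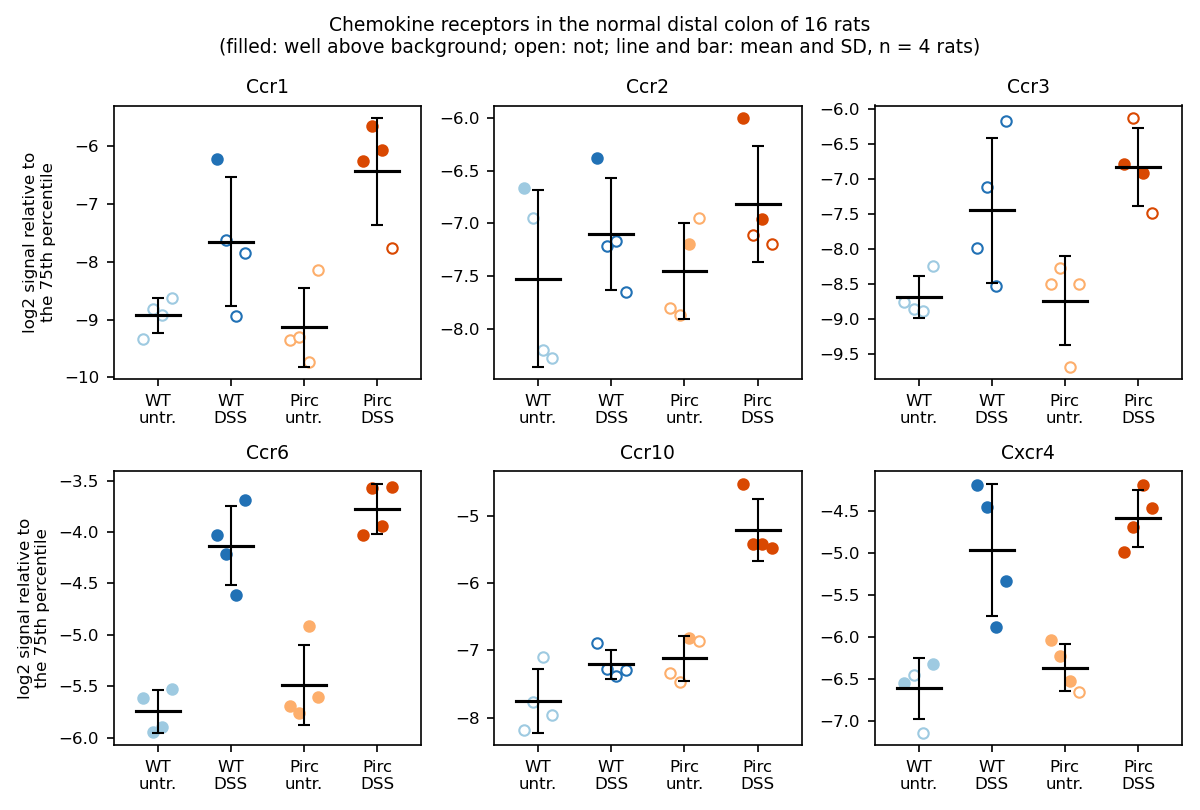
Levels of 6 receptors in each rat, in log2 of the signal over the array's 75th percentile (WT, wildtype; untr., untreated; line and bar, mean and SD of 4 rats; open circles, not well above background; each gene has its own axis). Ccr6 is filled in all 16 rats, with treated rats of both genotypes above the untreated ones, whereas Ccr10 is raised in the DSS-treated Pirc rats, at -5.48 to -4.53.

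Ccr10, the receptor of Ccl27 and Ccl28 on IgA plasma cells and skin T cells, was called in the Pirc rats and not in the wildtype rats. It was at -7.34, -7.47, -6.82 and -6.86 in untreated Pirc rats and -4.53, -5.42, -5.42 and -5.48 after DSS (difference 1.91, SE 0.26, adjusted p = 0.000322, 1 of 4 untreated arrays above background). With a common floor the difference was 1.01, still called, and with normexp 0.72 (adjusted p = 0.0115), under a factor of 2. All wildtype rats were below background, untreated at -8.18, -7.77, -7.09 and -7.97 and treated at -6.89, -7.28, -7.39 and -7.29. Among DSS-treated rats Ccr10 was at least 2.81-fold higher in Pirc than in wildtype (difference 2.0, SE 0.26, adjusted p = 0.000521), with no overlap. It was 1.01 with a common floor, still called, and 0.32 with normexp (adjusted p = 0.282). The difference between the DSS effects was 1.37 (SE 0.37, adjusted p = 0.223). Of 4 measured B and plasma cell markers, DSS enhanced 3 in Pirc rats, Cd79b and Mzb1 among them, where 5.51% of all probes were called higher. It enhanced 0 in wildtype rats, where 2.37% were. After DSS 1 of the markers, Mzb1, was higher in Pirc than wildtype rats (1.07, adjusted p = 0.0378), where 3.1% of all probes were. The mean level of the 4 markers was -3.99, -4.28, -4.70 and -4.22 in the treated Pirc rats and -4.72, -4.94, -5.89 and -3.69 in the treated wildtype rats. The part of these markers in the Ccr10 result was not tested.

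Cxcr3 and Cxcr6, receptors of effector T cells, were called higher after DSS in wildtype rats (adjusted p = 0.0158 and 0.0207), but all 8 of those arrays were below background for both genes, so no fold is given. Without rat 14 or 17 the call of Cxcr3 was lost (adjusted p = 0.0607 to 0.0672), and without rat 13, 14, 18 or 21 that of Cxcr6 (adjusted p = 0.0556 to 0.0655). The lymphocyte receptors Ccr7 and Ccr9 and the macrophage receptor Cx3cr1 were above background on every array, and none was called, with differences of -0.16 to 0.16 in the 2 genotypes. Ccr4 and Xcr1 were below background on all arrays, and Cxcr5, the B cell receptor of Cxcl13, was above it in 1 rat of each wildtype group and in rat 12.

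The atypical receptor Ackr3, which takes up Cxcl12, was at -4.64, -4.87, -4.35 and -4.69 in untreated and -4.32, -3.86, -3.56 and -3.17 in DSS-treated Pirc rats. The groups did not overlap, and the adjusted p passed with a change under a factor of 2 (difference 0.91, SE 0.26, adjusted p = 0.0309), where 8.14% of all probes were higher by adjusted p alone. The DSS-treated wildtype rats were at -4.21, -4.92, -5.15 and -4.27, and Ackr3 was higher in the treated Pirc rats (0.91, SE 0.26, adjusted p = 0.0269), with an overlap. Without rat 12 or 19 the first difference exceeded a factor of 2 (up to 1.11), as did the second without rat 12, 14 or 26 (1.03 to 1.11). Ackr2, which clears inflammatory CC ligands, had differences of 0.96 (SE 0.40, adjusted p = 0.13) and 1.10 (SE 0.40, adjusted p = 0.158) and was not called.

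Between genotypes, untreated rats gave no call among the 48 genes or among all probes (0% higher and 0% lower by limma). At an unadjusted p under 0.05 there were 14 of the 48 genes and 3103 of the 30367 probes. The median difference of the 48 genes, Pirc minus wildtype, was 0.20, beside -0.02 over all probes. In 8 of the 48 genes (16.7%) every untreated Pirc rat was above every untreated wildtype rat, where 4.69% of all probes did so. These were Ccl4, Ccl5, Ccl6, Ccl20, Cxcl11, Cxcl13, Cxcl14 and Cxcr3. Ccl24 was the 1 gene of 48 with every Pirc rat lower, where 4.02% of all probes did so. Ccl4 in this comparison was below background in all 8 rats, and Cxcr3 in all but rat 11.

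Ccl20 was one of those above background. It was at 0.62, 0.16, 0.35 and 0.47 in the untreated Pirc rats and -1.51, -0.55, -0.66 and -0.57 in the untreated wildtype rats. All Pirc rats were above 0 and all wildtype rats below it, yet the difference of 1.22 (SE 0.37) had an adjusted p of 0.275 over all probes, and the other probe gave 1.25 (SE 0.38, adjusted p = 0.275). After DSS the groups overlapped (0.77, SE 0.37, adjusted p = 0.169). Ccl5 was at -0.98, -1.07, -1.84 and -1.55 in untreated Pirc and -2.09, -2.50, -2.12 and -2.18 in untreated wildtype rats (0.86, SE 0.24, adjusted p = 0.263).

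After DSS, 2 of the 48 genes were called higher in Pirc than in wildtype rats, Cxcl17 and Ccr10, and 1 lower, Cxcl16, where 3.1% of all probes were called higher and 2.37% lower. By adjusted p alone, Ackr3 was also higher and the ligands Ccl24 and Cx3cl1 lower, where 9.47% of all probes were higher and 8.76% lower by that rule. The groups did not overlap for 2 genes that were higher and 4 that were lower in Pirc rats, where 9.62% and 9.13% of all probes did so. The fourth lower gene was Cxcl10 (-1.16, SE 0.50, adjusted p = 0.128). Ccl24 was at 3.45, 3.59, 3.42 and 3.68 in the Pirc rats and 4.20, 4.13, 3.97 and 3.82 in the wildtype rats, without overlap (difference -0.50, SE 0.11, adjusted p = 0.00933). Cx3cl1 was at 3.66, 3.67, 3.53 and 4.14 in Pirc and 4.64, 4.52, 5.04 and 4.27 in wildtype rats, again without overlap (-0.87, SE 0.21, adjusted p = 0.0126). Among the 11 colonic epithelium markers, 5 were lower in Pirc rats after DSS by adjusted p alone, and their mean was 4.40 to 5.11 there and 5.10 to 5.28 in the wildtype rats. Their part in these results was not tested. The count of calls was 7 without rat 14 and 6 without rat 24.

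None of the 48 genes had a called difference between the DSS effects in Pirc and wildtype rats, where 0.0428% of all probes were called higher and 0% lower. At an unadjusted p under 0.05 there were 11 of the 48 genes and 3234 of all probes. The genes called in one genotype alone are therefore not shown to respond differently to DSS. Among these, the differences between effects were 2.60 (SE 1.04, adjusted p = 0.395) for Ccl21, 1.42 (SE 0.75, adjusted p = 0.525) for Ccr1, 0.25 (SE 0.59, adjusted p = 0.932) for Cxcl14 and -1.22 (SE 0.52, adjusted p = 0.427) for Cxcl11.

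Adhesion molecules act with chemokines at the vessel wall. Of 22 measured genes for leukocyte adhesion and exit from vessels, DSS enhanced 12 in Pirc rats, where 5.51% of all probes were called higher, and 9 in wildtype rats, where 2.37% were. It diminished 0 in both, and the median difference was 1.60 and 1.24, beside 0.04 and 0.09 over all probes. Madcam1, the gut homing ligand, rose by 3.79 (adjusted p = 0.000216) and 2.71 (adjusted p = 0.00744). Icam1 rose by 2.58 (adjusted p = 0.000105) and 1.99 (adjusted p = 0.0025), and the integrin subunit Itgb7, the partner that binds Madcam1, rose by 1.92 (adjusted p = 0.000322) and 1.93 (adjusted p = 0.00222). The T cell adhesion integrin gene Itgae was not called (-0.44 and 0.22). Of 31 measured genes of chemokine receptor signalling and related ligands, 4 were enhanced and 1 diminished in Pirc rats, and 2 were enhanced in wildtype rats, with a median difference of 0.16 in each. Rac2, a small GTPase of leukocytes, rose by 1.99 (adjusted p = 0.000197) and 1.26 (adjusted p = 0.0122), and Pf4, a platelet and macrophage chemokine, by 3.07 (adjusted p = 0.00049) and 2.72 (adjusted p = 0.00496). Ppbp, whose products act on Cxcr2, rose by 4.09 (adjusted p = 0.000256) in Pirc rats and was at 0.48 (adjusted p = 0.75) in wildtype rats. Dpp4, a peptidase that trims chemokines, fell in Pirc rats (difference -2.26, adjusted p = 0.000686).

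Markers of several cell types moved with the DSS results, and their part in them was not tested. Of all probes, 5.51% were called higher after DSS in Pirc rats and 2.37% in wildtype rats. All 6 fibroblast markers were enhanced in Pirc rats and 4 in wildtype rats, with a mean level of -1.34 to -0.04 and -2.78 to -0.06 after DSS, beside -3.74 to -2.89 and -3.71 to -3.11 without. Of 7 macrophage and monocyte markers, DSS enhanced 3 in Pirc rats and 2 in wildtype rats, and Mrc1 was below background on all 16 arrays. Of 5 neutrophil markers, S100a8 and S100a9 were enhanced in both genotypes, and Elane and Ngp were below background on all arrays. Of 9 T cell markers, 1 (Cd2) was enhanced in each genotype, and Cd5 was below background on all arrays. Of 4 endothelial markers, Pecam1 (1.5, adjusted p = 0.00554) and Kdr (1.60, adjusted p = 0.00327) were enhanced in Pirc rats and 0 in wildtype rats, and Tek was below background on all arrays. The mean level of the 4 was -4.89 to -3.91 in untreated and -3.89 to -3.27 in treated Pirc rats, and -4.47 to -3.91 and -4.14 to -3.53 in wildtype rats. No marker of 6 for eosinophils and mast cells was called in either genotype. Of 3 dendritic cell markers, 1 was called higher and 1 lower in Pirc rats. Of 5 smooth muscle markers, 0 were called higher and 1 lower in Pirc rats, where 1.95% of all probes were called lower. No marker of these 2 lists was called in wildtype rats.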

How the data were processed

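Total RNA of normal distal colon from 16 rats was hybridised in 1 colour to Agilent arrays. For every array the authors deposited what Agilent Feature Extraction 10.7.3.1 wrote, in which the processed signal is a background-subtracted linear intensity, not normalized between arrays. The submitters' processing notes also name Partek, with no version. Each array held 62976 spots, of which 4259 controls were left out, which left 58717 spots of 30367 probes. The upper quartile (75th percentile) ran from 875.4 to 2194 over the arrays. No 2 arrays were identical, and their number limits the precision.

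The log2 of the deposited intensity minus the log2 of the 75th percentile was the level of a spot, and a probe's level was the mean of its spots that had no outlier flag. By accession, 18006 probes matched 15159 symbols of a RefSeq table (GRCr8), and 12361 did not match. The array was designed on another build, so no gene coordinates are given other than those of the RefSeq promoters. Groups were compared by lmFit and eBayes of limma 3.58.1 (R 4.3.3; group means, all 16 arrays) in 5 comparisons, with Benjamini-Hochberg adjustment over all probes. A bound compares the mean of a group above background on all 4 arrays with that of one above it on none, and takes, for each dim array, the higher of the lowest signal well above background and the probe's own. Each rat is a separate animal.

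Values in every rat were printed for up to 6 called genes with the largest rise and 4 with the largest fall in each comparison, well above background on all 4 arrays of the higher group, and for some others and their partners. The marker lists, the genes and the tests were chosen with earlier results of these data known, and values of genes outside the rule were chosen after they were seen. Counts cover all genes of a list, of which some are not reported here by name. The alternatives were quantile normalization, normexp (offset 50) on the median signal, as a mean signal is lacking from the columns, a filter on dim probes, a common floor, slide or array row as a block, a fit without moderation, only the compared groups, flagged spots kept, no minimum change, probes averaged and each rat left out. The fit was tested on simulated data.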

Additional observations from a re-analysis of the deposited data

Results flagged for a closer look

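In 80 groups of 4 rats, covering the 20 genes called in at least 1 comparison, 6 had 1 rat whose distance to the next one exceeded Dixon's critical share of the group's range, where chance gives about 1 in 20, or 4 of 80. Ccl11 in untreated wildtype rat 25 was at -3.47, with the other rats of that group from -8.16 to -7.75. Ccl2 in untreated Pirc rat 23 was at -3.72, with the others from -6.73 to -6.41. Ccl21 in DSS-treated wildtype rat 22 was at -4.50, with the others from -2.73 to -2.40, and this rat also had the lowest Ccl2, Ccl3 and Ccl11 of its group. Ccr10 in DSS-treated Pirc rat 12 was at -4.53, above the others at -5.48 to -5.42. Ccr3 in untreated Pirc rat 19 was at -9.69, with the others from -8.51 to -8.27, all of them below background. Cxcl17 in DSS-treated wildtype rat 14 was at -5.13, the only array of its group above background, with the others from -8.61 to -8.24.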

How the results depend on the processing

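No paired analysis was possible because the rat numbers are unique and the groups share none. The number of genes called after DSS in Pirc rats was 15, and 8 with normexp. In wildtype rats it was 11, and 2 with normexp, 4 with a common floor, 6 with only the compared groups, and 4 to 14 with each rat left out. Between genotypes it was 0 untreated under all alternatives, and after DSS 3, 5 with the filter on dim probes, 6 with no minimum change and 3 to 7 with each rat left out. For the difference between DSS effects it was 0, and 0 to 1 with each rat left out (Cxcl17 without rat 12 or 14).

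Some uncalled differences changed sign. With normexp, Pirc minus wildtype in untreated rats was -0.027 for Ccl2, -0.24 for Ccl3, -0.24 for Ccl7, -0.18 for Ccr10, -0.13 for Cxcl17 and -0.15 for Cxcr4, the DSS effect in Pirc rats 0.19 for Cxcr3, and the difference between DSS effects 0.28 for Ccl2. With each rat left out, the difference between DSS effects ran from -0.70 to 0.49 for Ccl2, -0.26 to 0.37 for Ccl7 and -0.18 to 0.39 for Cxcr4. The untreated genotype difference ran from -1.26 to 0.31 for Ccl11, -0.037 to 0.97 for Ccl2 and -0.25 to 0.55 for Ccl3. Ccl2 after DSS ran from -0.033 to 0.79 between genotypes, and Cxcl17 in wildtype rats from -0.12 to 1.07 between treatments. Of 1841 values of single genes under an alternative, 1714 kept direction and side of the threshold, 86 lost and 15 gained the call, and 26 changed sign. The cause was not tested.

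The median DSS effect over all probes in Pirc rats was -0.10 with quantile normalization and 0.18 with normexp, beside 0.04. Where both groups lay at the common floor there is no value. Probes below background in the lower group limit the folds of Ccl3, Ccl7, Ccr10 and Cxcl17 to bounds, and those of Ccl4, Ccr1 and Ccr3 are not given.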
